A study of Mus musculus with 3 samples.

Results

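Mitochondria have a ribosome of their own, and the proteins of that ribosome are encoded in the nucleus, made on cytosolic ribosomes and imported. The messages of these proteins were followed here in RNA carried by tagged cytosolic ribosomes of the mouse prefrontal cortex. Members were the gene symbols that start with Mrpl (large subunit) or Mrps (small subunit) followed by a digit, pseudogene symbols excluded, which gave 77 of the 32531 genes in the count tables. All 77 were found in the gene annotation used for lengths and positions. The samples were adult mice of the transgenic line Slc17a6-TRAP JX883, in which an EGFP-tagged ribosomal protein L10a is expressed under control of Slc17a6, the gene of the vesicular glutamate transporter VGLUT2. Polysomes with the tag were pulled down with antibodies to EGFP from dissected, untreated prefrontal cortex (translating ribosome affinity purification, TRAP). There were 3 immunopurified libraries, each from 3 pooled mice, and all 3 form 1 group, numbered replicates 1, 2 and 3. No input RNA, untagged control or other condition was analysed here. A value is therefore the abundance of a message in the pulled-down RNA, and neither its enrichment over the tissue nor its cell type of origin was measured. A message found in fewer cells and one at a lower level per cell cannot be told apart in such bulk RNA.

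The mitochondrial ribosome translates the few messages encoded by mitochondrial DNA, all of them for core subunits of the respiratory chain complexes and the ATP synthase. Part of its proteins descend from those of the bacterial ribosome, and the others were added during the evolution of mitochondria. Neurons depend on respiration for the ATP that ion pumping and synaptic transmission use.

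The libraries held 12592174, 8964137 and 12648577 counts over named genes in replicates 1, 2 and 3. Pairs of libraries correlated at Pearson's r 0.971 to 0.976 over 18377 genes with a count (log2 scale; genes do not count as replicates). Every pair differed by more than counting error alone (chi-square per degree of freedom 10.7 to 14.8), so no library was a copy of another. The 8 markers of glutamatergic neurons, led by Camk2a, Slc17a6 and Nrgn, all reached 1 CPM (a count scaled by the library total) in every library and had a median of 342 ± 17.5 TPM, the same scale after division by transcript length (SD, n = 3). Markers of GABAergic neurons had a median of 48.4 TPM, those of astrocytes 24.6 TPM, those of oligodendrocytes 37.1 TPM, those of microglia 8.29 TPM and those of endothelium 1.08 TPM. Single genes of other types were abundant, such as Sst (1215 TPM) and Gad2 (524 TPM) of GABAergic neurons and Aldoc (524 TPM) and Slc1a2 (369 TPM) of astrocytes. Some markers of neighbouring regions differed between libraries. Cdhr1 of the olfactory bulb had 132, 109 and 19.7 TPM in replicates 1, 2 and 3, and the olfactory list a median of 23.7, 12.7 and 4.41 TPM, but Trh of that list ran the other way with 54.8, 109 and 142 TPM. Striatal Penk (425, 672 and 717 TPM) and Pde10a (46.8, 71.3 and 78.2 TPM) were lowest in replicate 1, as was thalamic Tcf7l2 (4.39, 18.2 and 11.5 TPM). Other genes of these lists did not follow. Striatal Drd1 was lowest in replicate 2 (36.5, 30.9 and 37.4 TPM). Thalamic Ntng1 was highest in replicate 1 (66.4, 57.3 and 54.0 TPM), and Calb2 was lowest in replicate 3 (191, 215 and 140 TPM). List medians were 36.5, 41.2 and 37.4 TPM for striatum, and 30.9, 32.6 and 37.9 TPM for thalamus. In the edgeR test of variation described below, Cdhr1 (adjusted p = 2.28e-15) and Tcf7l2 (adjusted p = 0.0429) passed 0.05. No other gene of the 3 lists passed in edgeR, Penk (adjusted p = 0.281) and Pde10a (adjusted p = 0.373) included. The genes named here were picked with their values known, and their part in the values below was not tested.

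The members were scattered over 17 chromosomes, with at most 10 on 1 of them (chromosome 11), and many lay back to back with another gene. In GENCODE M21 on mm10, 33 of 77 members (42.9%) had a divergent protein-coding neighbour on the opposite strand whose start lay within 1000 bases. The same held for 2173 of 15429 protein-coding genes with a count (14.1%), for 31 of 75 genes of the respiratory chain and ATP synthase (41.3%) and for 15 of 76 cytosolic ribosomal protein genes (19.7%). Several neighbours also encode mitochondrial proteins. Mrpl36 started 29 bases from Ndufs6, a subunit gene of respiratory complex I, and the 2 stood at 184 ± 6.65 and 304 ± 61.6 TPM (SD, n = 3). Mrpl47 started 615 bases from another complex I subunit gene, Ndufb5, which at 154 ± 10.4 TPM was above Mrpl47 at 19.0 ± 3.24 TPM. Mrps12 started 172 bases from Sars2, the mitochondrial seryl-tRNA synthetase gene (106 ± 24.7 TPM for Mrps12 and 13.2 ± 4.13 TPM for Sars2). Mrpl46 and Mrps11, 1 member of each subunit, started 412 bases apart on chromosome 7 and stood at 78.6 ± 21.6 and 16.0 ± 2.98 TPM. The pairs named here were picked with their values known, and the 2 genes of a pair may overlap. Of the exonic bases, 24.2% of Mrpl47, 2.58% of Mrpl36, 12.2% of Mrpl46 and 7.97% of Mrps11 overlapped another gene, chiefly the partner. For Mrps12 the share was 0. Reads that fall in 2 genes were assigned to neither, and their part in these levels was not tested. A close start went with levels that differed severalfold for the pairs of Mrpl47, Mrps12 and Mrpl46, and with less than a 2-fold difference for Mrpl36 and Ndufs6.

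Promoters were read from RefSeq (build GRCm38.p6), as windows from 250 bases before to 50 bases after a transcript start, for 68 of the 77 members (74 windows). Letters known as binding motifs of factors that control nuclear genes of mitochondrial proteins were searched on both strands. These were the motif of nuclear respiratory factor NRF1 (10 letters, 1 of them free), CCGGAAGT of ETS factors such as GABPA, and the motif of YY1 (10 letters); the capitals in the windows below spell out each match. The NRF1 letters stood in 13 of 74 member windows (17.6%), against 1512 of all 32851 windows (4.60%) and 8.23% of the windows of genes with a count. The ETS letters stood in 16.2% of member windows, against 3.89% of all windows and 6.46% of those of genes with a count. The YY1 letters stood in 6.76% of member windows, against 0.852% and 1.58%. Related sets were level or higher for some motifs, with NRF1 letters in 27.3% and YY1 letters in 7.58% of respiratory windows, and ETS letters in 16.7% of cytosolic ribosomal windows. In the other cases the shares were 7.58% for ETS in respiratory windows, and 7.58% for NRF1 and 6.06% for YY1 in cytosolic ribosomal windows. At least 1 of the 3 was present for 28 of 68 members (41.2%), against 17.7% of genes with a count, 41.0% of the respiratory chain and ATP synthase genes and 30.4% of the cytosolic ribosomal protein genes. There were 0 places in the member windows where matches of different motifs overlapped. Members with the NRF1 letters had a median of 54.6 TPM (n = 13), and the other members with a window had 61.8 TPM (n = 55). The medians with and without the letters were 47.5 (n = 12) and 62.2 TPM (n = 56) for ETS factors, and 32.0 (n = 5) and 61.9 TPM (n = 63) for YY1. A match describes these letters only, and binding was not measured. The windows below are shown because they are those of the 2 members with the highest TPM that hold the NRF1 letters (Mrps21, mm10 chr3:95871465-95871764, minus strand; Mrpl39, chr16:84735195-84735494, minus strand), and of the highest members without NRF1 letters that hold those of ETS factors (Mrpl27, chr11:94653541-94653840, plus strand) or YY1 (Mrpl35, chr6:71823735-71824034, minus strand). Capitals mark the matched letters, and each line reads 5′ to 3′ along the gene's strand.
Mrps21: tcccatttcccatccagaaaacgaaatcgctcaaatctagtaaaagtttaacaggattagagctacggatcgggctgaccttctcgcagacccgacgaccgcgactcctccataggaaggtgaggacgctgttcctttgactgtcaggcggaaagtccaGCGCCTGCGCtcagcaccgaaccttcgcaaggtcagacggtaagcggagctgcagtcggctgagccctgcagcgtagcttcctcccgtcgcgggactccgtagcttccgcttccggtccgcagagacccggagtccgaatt
Mrpl39: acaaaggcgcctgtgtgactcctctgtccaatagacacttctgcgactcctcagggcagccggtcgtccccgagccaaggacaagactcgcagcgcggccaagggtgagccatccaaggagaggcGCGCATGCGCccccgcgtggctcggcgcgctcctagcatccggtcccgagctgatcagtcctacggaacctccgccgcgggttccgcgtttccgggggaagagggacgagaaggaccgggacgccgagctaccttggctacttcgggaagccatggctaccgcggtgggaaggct
Mrpl27: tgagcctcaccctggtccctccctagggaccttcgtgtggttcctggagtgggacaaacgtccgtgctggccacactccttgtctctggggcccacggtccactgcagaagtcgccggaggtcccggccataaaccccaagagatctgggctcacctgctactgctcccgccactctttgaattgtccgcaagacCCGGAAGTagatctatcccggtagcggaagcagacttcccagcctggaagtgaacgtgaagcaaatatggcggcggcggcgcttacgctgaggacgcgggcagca
Mrpl35: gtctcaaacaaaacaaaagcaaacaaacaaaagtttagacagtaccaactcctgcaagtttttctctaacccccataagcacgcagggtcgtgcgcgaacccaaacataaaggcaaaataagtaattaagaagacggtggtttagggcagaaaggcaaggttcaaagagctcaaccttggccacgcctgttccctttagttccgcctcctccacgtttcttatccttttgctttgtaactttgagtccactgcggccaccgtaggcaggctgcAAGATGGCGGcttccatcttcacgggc

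All but a few members were present at a moderate level. At 1 CPM or more in every library were 74 of 77 members, and 67 averaged between 10 and 100 CPM. Together they held 0.226%, 0.219% and 0.217% of the counts in replicates 1, 2 and 3, or 0.221% ± 0.0048 (SD, n = 3). Levels were compared between genes in TPM, which divides the deposited counts by the length of the merged annotated exons. The median member stood at 55.5, 52.0 and 57.1 TPM in replicates 1, 2 and 3, against 19.2, 19.1 and 19.1 TPM for the median of all genes tested. Among 11945 genes with a length that reached 1 CPM in every library, the median expressed member was at the 69.6th percentile of TPM, and 57 of 74 lay in the upper part of the range, above the median gene. Merged exons were shorter for the members (median 2255 bases) than for all genes tested (4521 bases). These comparisons with all genes were not repeated in CPM or with another length. The members spread widely, with the 75th percentile 3.55 times the 25th.

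**Figure D1:**
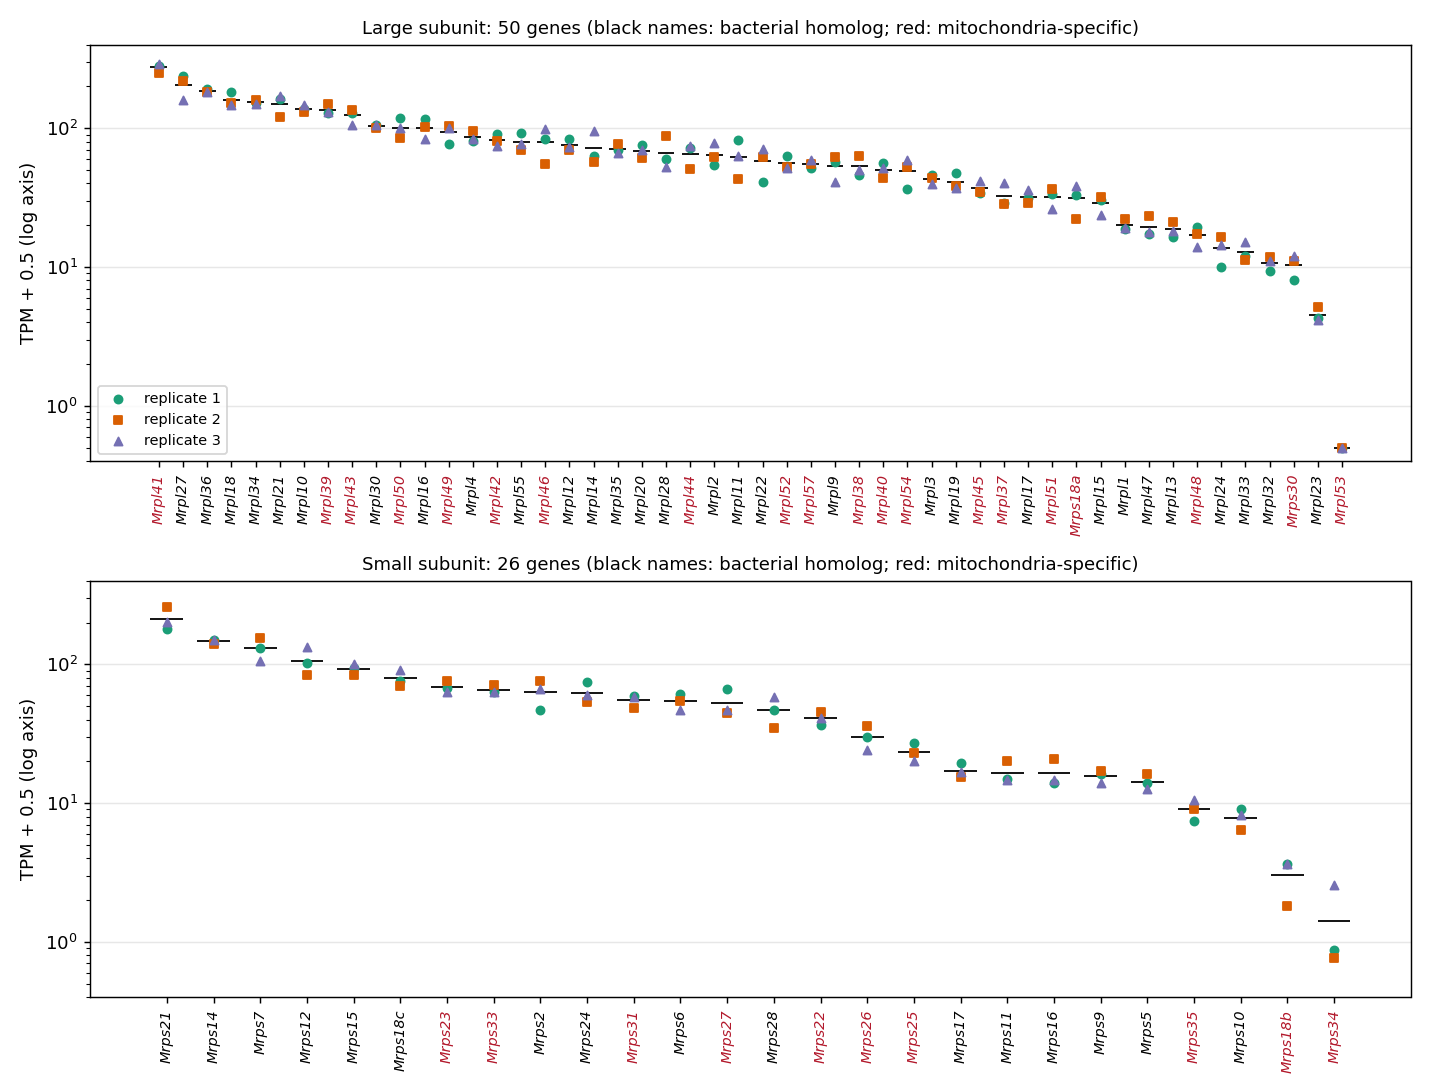
Level of 50 large subunit genes (above) and 26 small subunit genes (below) in TPM + 0.5 on a log axis, ordered by mean. Symbols are the 3 libraries and black bars the means. Mrps36, counted in neither subunit here, is not shown. The libraries of a gene lie close together compared with the spread between genes, and Mrpl53, Mrps34 and Mrps18b stand below the other members.

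In the large subunit, Mrpl41, a protein found in mitochondrial but not in bacterial ribosomes, was highest. Mrpl41 (ENSMUSG00000036850.4, mm10 chromosome 2, 24974117 to 24975098) had 279, 251 and 290 TPM in replicates 1, 2 and 3. It was followed by Mrpl27 with 236, 217 and 158 TPM, by Mrpl36 with 192, 180 and 181 TPM, and by Mrpl18 with 182, 152 and 147 TPM, all 3 with a bacterial counterpart. The 3 libraries of Mrpl41 all lay above those of the other large subunit genes, while those of Mrpl27, Mrpl36 and Mrpl18 overlapped. The lowest members of the subunit were Mrps30, which carries a small subunit symbol but sits in the large subunit, at 9.84 ± 2.05 TPM (SD, n = 3), Mrpl23 at 4.03 ± 0.51 TPM and Mrpl53, which was listed at 0 counts in every library. At these depths a count of 0 allows up to 3 counts, which is 0.238 CPM in replicate 1, 0.335 CPM in replicate 2 and 0.237 CPM in replicate 3.

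In the small subunit, Mrps21 was highest, with 178, 259 and 202 TPM in replicates 1, 2 and 3. Mrps14 followed with 150, 139 and 149 TPM and was the member with the most counts (1254, 824 and 1249). Mrps7 had 131, 154 and 105 TPM, and Mrps12, whose bacterial counterpart lies at the decoding centre, had 102, 83.0 and 132 TPM. Mrps21 exceeded Mrps14 in 3 of 3 libraries, while Mrps7 was above Mrps14 in replicate 2 alone. At the other end stood Mrps10 at 7.37 ± 1.33 TPM (SD, n = 3), Mrps18b at 2.55 ± 1.07 TPM and Mrps34 at 0.906 ± 1.01 TPM. Of 76 pairs of neighbours in the order of all members, 73 had overlapping ranges over the libraries, so the order is not resolved gene by gene. The exceptions were Mrps10 above Mrpl23, Mrpl23 above Mrps18b, and Mrps34 above Mrpl53. The last pair sets 2, 1 and 11 counts of Mrps34 in replicates 1, 2 and 3 against 0 counts of Mrpl53. As a count of 0 allows up to 3, that pair is not resolved either.

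By position in the ribosome, the genes of the stalk that recruits translation factors had means above the median member with merged exons. Mrpl10, its base, stood at 138 ± 7.20 TPM, Mrpl12, which forms the flexible arm in several copies, at 75.1 ± 7.48 TPM, and Mrpl11 beside it at 61.8 ± 19.4 TPM (SD, n = 3 each). In replicate 2 Mrpl11 was below the median member (42.4 TPM, against 52.0 TPM), and with basic coding transcripts, described below, Mrpl12 ranked 43rd of 77. Genes of proteins around the tunnel through which the new chain leaves ranged more widely. Mrpl22 stood at 57.2 ± 15.2 TPM, Mrpl45, which lies at the contact with the inner membrane, at 36.4 ± 4.36 TPM, Mrpl47 at 19.0 TPM, Mrpl24 at 13.1 ± 3.35 TPM and Mrpl23 at 4.03 TPM. In the small subunit, around the decoding centre and the path of the message, Mrps12 was highest, followed by Mrps2 at 62.4 ± 14.7 TPM, Mrps24 at 61.9 ± 10.7 TPM and Mrps5 at 13.7 ± 1.80 TPM.

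The length used for a gene moved some of these levels. Merged exons take in every annotated transcript of a gene. With the median length of the protein-coding transcripts of the basic annotation, chosen after seeing the data, 6 of the 10 highest and 7 of the 10 lowest members were the same. Mrpl30 then came first at 285 TPM (103 TPM with merged exons), Mrpl42 next at 257 TPM (81.5 TPM), and Mrpl41 came 4th at 177 TPM. Mrpl33, 69th with 12.3 TPM over 7326 merged bases, was 12th with 107 TPM over 478 bases. Mrpl23 and Mrps10, low with merged exons, had 16.1 and 31.7 TPM with the shorter length. Mrps18b, Mrps34 and Mrpl53 were the lowest 3 with either length. Mrpl42 and Mrpl33 were chosen after their values were seen, for how much they moved.

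**Figure D2:**
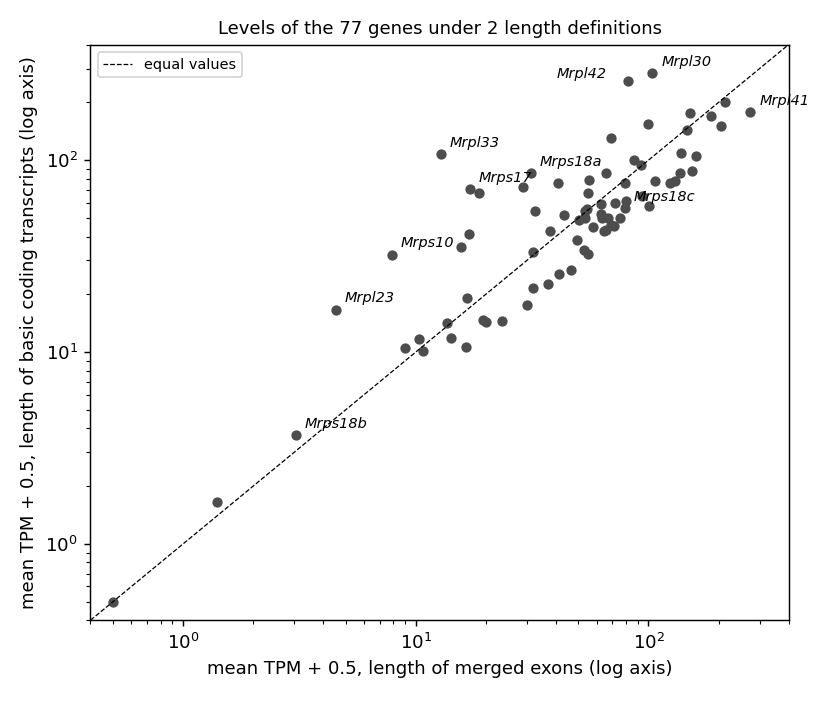
Mean TPM + 0.5 of the 77 genes on log axes, with the length of merged exons on the x axis and the median length of basic protein-coding transcripts on the y axis; each point is a gene. Mrpl33, Mrpl30 and Mrpl42 lie well above the line of equal values, and Mrps18b and 2 further genes stay lowest on both axes.

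The 3 genes named Mrps18 are paralogs of 1 bacterial protein. In the ribosome the product of Mrps18c takes the bacterial position, that of Mrps18b another site in the small subunit, and that of Mrps18a a site in the large subunit. Mrps18a had 24.5, 16.3 and 28.5 CPM in replicates 1, 2 and 3, Mrps18c had 16.6, 15.2 and 19.9 CPM, and Mrps18b had 1.35, 0.558 and 1.34 CPM. Mrps18b was the lowest of the 3 in every library, with Mrps18a 10.3 to 16.5 times and Mrps18c 23.9 to 52.8 times as high in TPM. These folds rest on 17, 5 and 17 counts of Mrps18b and on the length used. The order of Mrps18a and Mrps18c depended on length, since Mrps18a stood at 30.7 and Mrps18c at 78.7 TPM with merged exons, and at 85.4 and 75.2 TPM with the basic coding transcripts, where Mrps18b stood at 3.21 TPM. Of the 50-base stretches in the transcripts of Mrps18b, 14.6% occurred in a transcript of another gene, and reads placed at more than 1 position were not counted.

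The lowest 3 members were among those whose exons overlap another annotated gene. Of the 77 members, 45 shared 0 exonic bases with another gene and had a median of 55.2 TPM, and 25 shared less than 25% and had a median of 61.9 TPM. The 4 that shared 25% to 50% had a median of 26.9 TPM, and the 3 that shared more had 0.906 TPM. Mrpl53 shared 88.0% of its 790 exonic bases (chromosome 6, 83109040 to 83109939), all with genes that are not rows of the count tables. Mrps34 shared 77.8% (chromosome 17, 24895116 to 24897502), most with Mapk8ip3 on the opposite strand, and had 2, 1 and 11 counts in replicates 1, 2 and 3, against 4576, 3318 and 4136 for Mapk8ip3. Mrps25, which shared 69.8% with Nr2c2, stood at 22.9 ± 3.58 TPM (SD, n = 3). Of the members that shared 25% to 50%, Mrpl43 (33.4%) stood at 123 TPM, Mrpl19 at 40.6 TPM, Mrpl24 (26.3%) at 13.1 TPM and Mrps18b (30.5%) at 2.55 TPM. The overlap of Mrps18b, like that of Mrpl53, was all with genes that are not rows of the count tables. Reads that fall in 2 genes held 2.68% to 2.84% of all counts and were assigned to neither. Whether such reads lowered Mrpl53 and Mrps34 was not tested, and the use of strand in counting is not given in the sources used here.

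**Figure D3:**
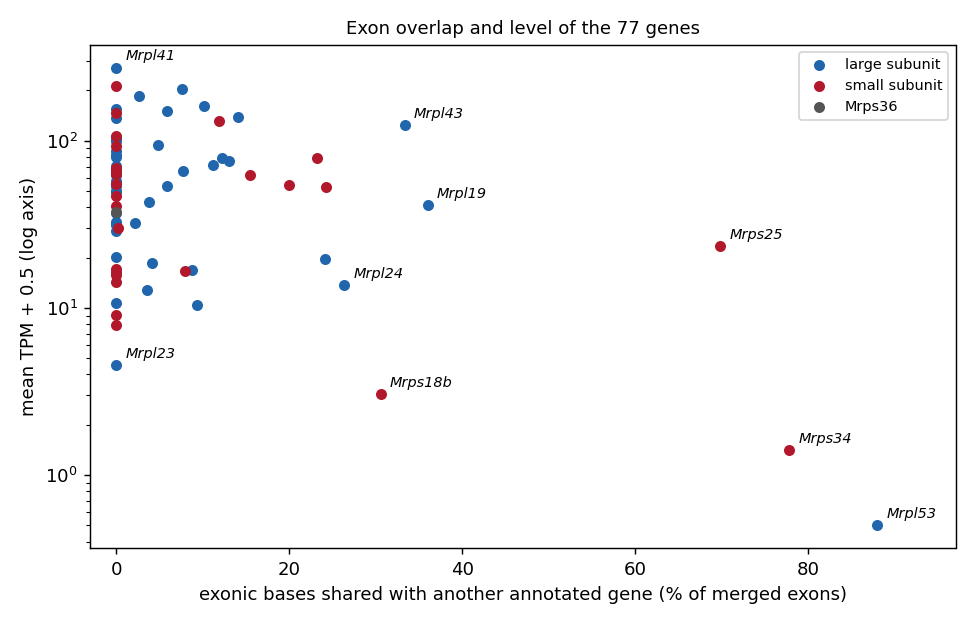
Share of exonic bases that overlap another annotated gene (x axis, percent) and mean TPM + 0.5 (y axis, log) for the 77 genes, coloured by subunit. The 45 genes without overlap span the range from Mrpl23 to Mrpl41, while Mrps34 and Mrpl53 combine over 75% overlap with the lowest levels.

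As a group, large subunit genes stood somewhat above small subunit genes. The median of 50 large subunit genes was 58.3, 55.7 and 60.5 TPM in replicates 1, 2 and 3, against 46.5, 44.3 and 46.6 TPM for 26 small subunit genes. The difference of medians was 0.34 ± 0.03 on the log2(TPM + 0.5) scale (SD, n = 3), or 1.27-fold, in 3 of 3 libraries. It was 0.17 without genes whose exons overlap another gene over at least 25% of their length, and 0.71 with the subunits taken from the symbols. Mrps36 (37.1 ± 2.84 TPM) is among the 77 members but was counted in neither subunit. Only the split by symbol includes it. Members classed as having a bacterial counterpart (46) exceeded those classed as mitochondria-specific (30) by 0.35 ± 0.03, or 1.27-fold, in 3 of 3 libraries. The value was -0.085 in CPM, which is not per length. Mrps18a and Mrps18b, paralogs of a bacterial protein that do not take its position, were classed as mitochondria-specific. Sorting them the other way was not tried. The 10 small subunit genes classed as mitochondria-specific, Mrps18b among them, had the lowest median of the 4 classes, at 34.8 ± 4.26 TPM. The 30 large subunit genes with a bacterial counterpart had the highest, at 63.3 ± 3.91 TPM. These are descriptions of chosen groups and carry no p. The group as a whole lay below both the cytosolic ribosome and the machinery it serves. The median of mitochondrial ribosomal genes lay 1.80 ± 0.08 log2 units below that of 76 cytosolic ribosomal protein genes (3.49-fold lower, 3 of 3 libraries), and 2.26 ± 0.17 units below that of 75 nuclear genes of the respiratory chain and ATP synthase (4.79-fold lower, 3 of 3 libraries). Cytosolic ribosomal protein genes are uncertain here because 26 of 76 share at least 25% of their 50-base stretches with another gene, against 0 of 77 mitochondrial ones. Without those 26 the mitochondrial genes lay 1.47 units below.

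Among genes that belong to the same machinery under other names, the subunits stood in the same range, and the translation and assembly factors had lower medians. Subunits without the symbol were all expressed (6 of 6), led by Aurkaip1 at 126 ± 12.6 TPM and Chchd1 at 95.7 ± 25.9 TPM. Ict1, a hydrolase built into the large subunit, stood at 45.5 ± 4.60 TPM, the GTP-binding Dap3 at 41.5 ± 4.97 TPM, Gadd45gip1 at 37.2 ± 5.01 TPM and the RNA-binding Ptcd3 at 22.8 ± 4.04 TPM. Their median was 44.1 ± 3.06 TPM, and that of the 77 members 54.9 ± 2.60 TPM. The 14 factors of mitochondrial translation had a lower median of 21.7 ± 1.97 TPM. They were led by Oxa1l, which inserts new chains into the inner membrane (66.3 ± 8.86 TPM), the initiation factor gene Mtif2 (44.2 ± 10.3 TPM) and the elongation factor gene Tufm (43.4 ± 9.62 TPM), with Guf1 lowest at 3.18, 2.68 and 6.56 CPM (mean 1.96 TPM). Of the 50-base stretches of Tufm, 54.5% were shared with another gene. The 21 assembly factors had a median of 17.1 ± 3.03 TPM, led by Ngrn (86.1 ± 9.44 TPM), the GTPase gene Noa1 (47.8 ± 11.6 TPM) and Eral1, a chaperone of the small subunit RNA (35.3 ± 8.49 TPM), with the GTPase gene Mtg2 lowest at 2.11 ± 0.96 TPM. All 14 translation factors and all 21 assembly factors reached 1 CPM in every library.

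**Figure D4:**
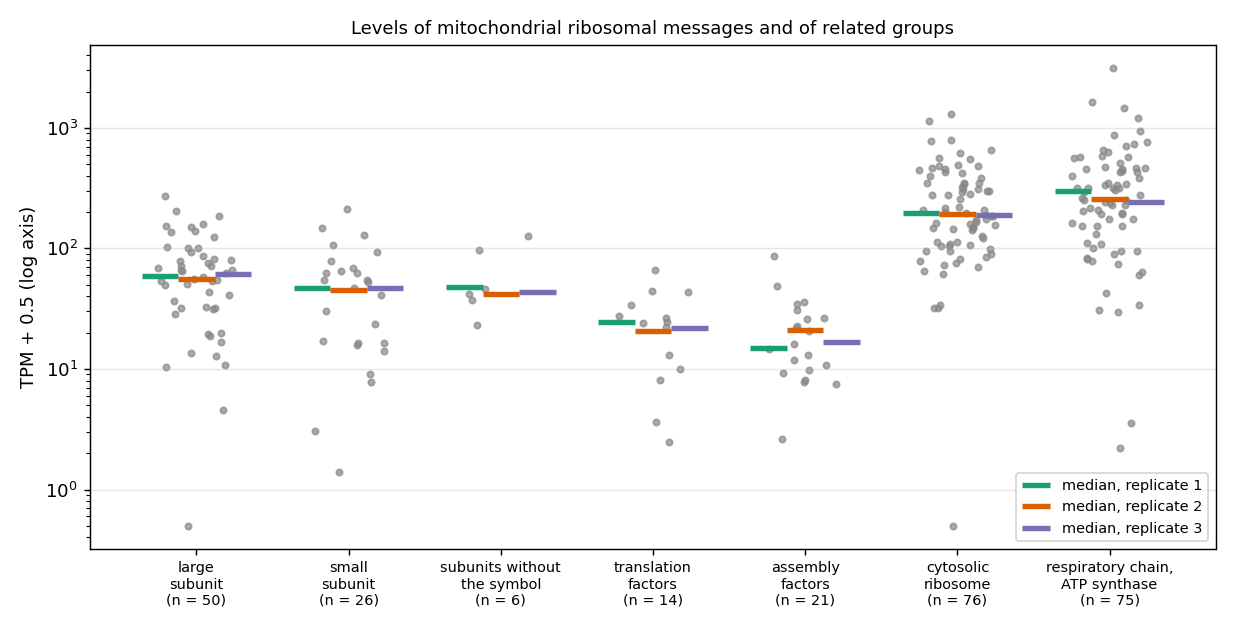
Mean TPM + 0.5 (log axis) of each gene (grey points) in the 2 subunits and in related groups, with the median of each group in replicates 1, 2 and 3 as coloured bars. The medians of both subunits lie above those of the factor groups and below those of the cytosolic ribosome and the respiratory chain in every library.

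No mitochondrial ribosomal gene was called more variable between libraries than genes of like abundance. The test sets each gene against a dispersion trend estimated from the same 3 libraries, so it does not show that levels were equal. In the goodness of fit of 1 common level per gene in edgeR, 36 of 14774 genes tested (0.244%) exceeded that trend at a Benjamini-Hochberg adjusted p of 0.05, and 0 of the 76 members tested did. Had 1 common dispersion been used for all genes, 1097 of the 14774 would have been called, again with 0 members. That dispersion equals a coefficient of variation of 29.8%, above the 15.4% median of the members tested. It was therefore unlikely to call them, and the unadjusted p of Mrpl11 in edgeR became 0.327. At an unadjusted p of 0.05 in edgeR, 1 of 76 members passed (Mrpl11), against 7.22% of all genes tested. Mrpl53, at 0 counts, was not tested. Mrpl11 had 53.4, 27.8 and 40.7 CPM in replicates 1, 2 and 3 (unadjusted p = 0.0338, adjusted p = 0.594 in edgeR). It was highest in replicate 1 and lowest in replicate 2. The median coefficient of variation between libraries was 15.4% over the members tested, against 19.3% over all genes tested. In a matched range of abundance, 17.0 to 40.7 normalized CPM, the median was 15.8% for 38 members and 15.9% for 2696 other genes. On the log2(CPM + 0.5) scale, 76 of 77 members had a highest and a lowest library less than 1 unit apart, the exception being Mrps34. The 76 include Mrpl53, at 0 counts. This share was not taken over all genes, so it does not set the members apart. The pseudocount narrows the range of low genes, and without it Mrps18b (1.35, 0.558 and 1.34 CPM) also differed by more than 2-fold.

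**Figure D5:**
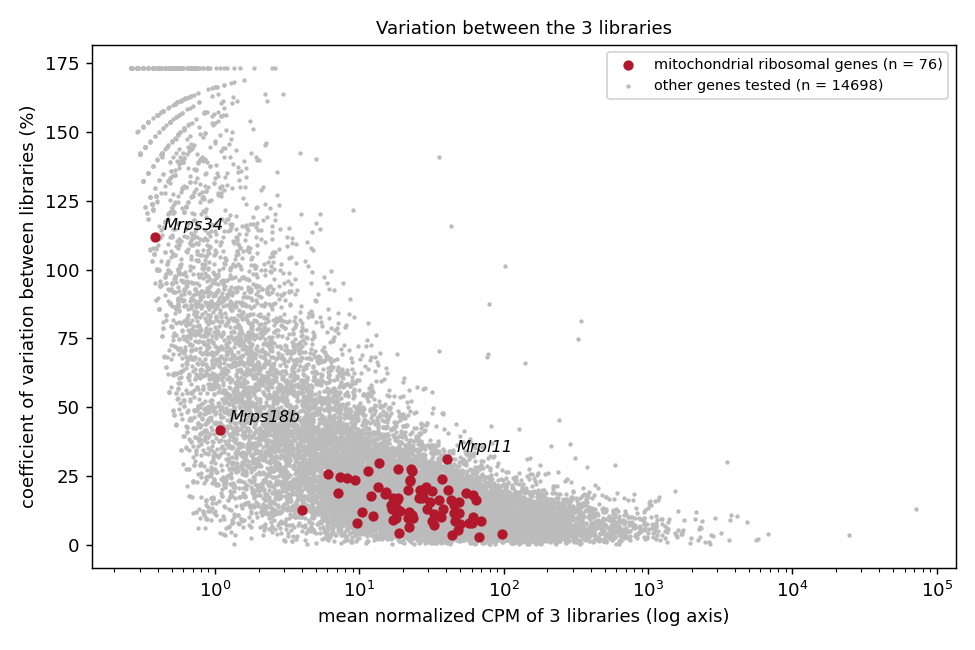
Coefficient of variation between the 3 libraries (y axis, percent) against mean normalized CPM (x axis, log) for 76 mitochondrial ribosomal genes (red) and the other genes tested (grey). The members lie within the cloud of genes of like abundance, Mrpl11 being the highest of those above 20 CPM.

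Among members averaging at least 5 CPM, 5 of the 8 with the widest ranges were highest in replicate 3, and 5 were lowest in replicate 2. Mrpl46 (83.0, 55.2 and 97.6 TPM), Mrps18a, Mrps28 (7.46, 5.47 and 9.09 CPM) and Mrpl14 (12.1, 10.8 and 18.3 CPM) were both. Mrpl22 (8.10, 12.2 and 14.0 CPM) was highest in replicate 3 and lowest in replicate 1, and Mrpl11 highest in replicate 1 and lowest in replicate 2. Mrpl28 (16.8, 24.3 and 14.6 CPM) and Mrpl24 (4.37, 7.36 and 6.32 CPM) were highest in replicate 2. Each of these ranges was below 1 log2 unit, and none of the 8 genes passed the adjusted threshold in edgeR. With the same minimum of 5 CPM, the narrowest ranges belonged to Mrpl30 (69.1, 65.3 and 68.9 CPM), Mrpl36 (45.5, 42.5 and 42.6 CPM), Mrpl34 (18.7, 19.7 and 18.3 CPM) and Mrps14 (99.6, 91.9 and 98.7 CPM). Over all members, replicate 1 was the highest library for 25 genes, replicate 2 for 28 and replicate 3 for 23. The median deviation of the members tested from their own means was 0.02, -0.01 and -0.02 log2 units in replicates 1, 2 and 3. Among the factors, the release factor gene Mtrf1, picked with its values known, had 17.2, 6.36 and 16.4 CPM (unadjusted p = 0.023, adjusted p = 0.537 in edgeR), and 0 of 41 genes of the 3 related groups passed the adjusted threshold.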

How the data were processed

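RNA immunopurified with tagged ribosomes was measured in 3 libraries of 1 group. The deposited values are unnormalized whole counts by gene symbol, 1 table per library. The submitters' processing notes name STAR 2.0.0e, HTSeq and mm10. Which annotation was counted, and whether strand was used, is not given in the sources used here. Lines that name no gene held 27.8% of all counts (13.3% reads at more than 1 position, 11.8% outside genes, 2.76% shared by genes) and were left out.

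CPM was computed over named genes. Lengths, positions, overlaps and shared 50-base stretches came from GENCODE M21 (mm10), matched by symbol for 89.9% of symbols with a count. TPM was computed from counts and merged exon lengths, with a pseudocount of 0.5 on the log2 scale. Variation between libraries was tested with edgeR 4.0.16 in R 4.3.3, by goodness of fit to a single level per gene (TMM factors, trended dispersion). Genes needed 10 counts in some library, and p was adjusted over all genes tested; the test was checked on simulated data. The libraries are separate pools of 3 mice by the labels. Promoters came from RefSeq (GRCm38.p6). Python 3.11.15 and scipy 1.17.1 were used. The members, lists and tests were chosen with earlier results of these data known. Named members were the 4 highest and 3 lowest by TPM in each subunit, the 8 widest and 4 narrowest ranges between libraries among those of at least 5 CPM, those under 1 CPM in any library, any called varying, the Mrps18 paralogs, and the stalk, exit tunnel and decoding sites. Of the related lists, all subunits, and the 3 highest and the lowest factors, were named; all others were chosen after their values were seen. The limit given for 0 counts covers counting error alone, as PCR copies of a molecule cannot be recognised. Alternatives were other normalizations, count minimums, dispersions, lengths and summaries, and each replicate left out.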

Additional observations from a re-analysis of the deposited data

How the results depend on the processing

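The count of mitochondrial ribosomal genes called variable between libraries was 0 under all settings run: DESeq2 1.42.0 size factors, library totals, both other count minimums, a common dispersion, a threshold of 0.01 and each replicate left out. No named member passed in any of these fits, the lowest adjusted p being 0.228 for Mrps34 with a common dispersion in edgeR. The common dispersion, at 29.8%, was above the coefficient of variation of most members, so its count of 0 adds little. Over all genes the count of 36 became 20 with at least 50 counts in every library, 1097 with a common dispersion, 18 at 0.01, and 16 to 21 with a replicate left out. The large over small subunit difference of 0.34 log2 units was 0.40 in CPM, 0.56 with means, 0.24 for members at 1 CPM or more, 0.53 with the longest transcript, 0.17 without overlapping genes, 0.26 with basic coding transcripts, 0.71 by symbol, and 0.32 to 0.35 with a replicate left out. The difference from cytosolic ribosomal genes of -1.80 was -1.56 in CPM, -2.14 with means, -2.21 with the longest transcript, -2.35 with basic coding transcripts and -1.47 without genes of shared sequence (-1.85 to -1.77 with a replicate left out). The difference from respiratory genes of -2.26 was -1.79 in CPM and -2.43 with means (-2.35 to -2.18). The bacterial-homolog difference of 0.35 reversed to -0.085 in CPM, and was 0.53 with means, 0.23 for members at 1 CPM or more and 0.26 without overlapping genes (0.33 to 0.36). In CPM the lengths of the genes are not divided out; the cause of the other changes was not tested. The summed share of 0.221% was 0.238% without Rn45s in the total and 0.209% without overlapping members (0.218% to 0.223% with a replicate left out). No paired analysis was possible because there is 1 group. Depth limits the members under 1 CPM, Mrps18b, Mrps34 and Mrpl53, which had 0 to 17 counts per library.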
